A study of Mus musculus with 3 samples.

Results

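Genes of thyroid hormone transport and action were described in microvascular fragments, which are stretches of capillary and other small vessels isolated from mouse brain with the cells that stay attached. The set holds 9 of the 56941 genes of the count table, chosen by symbol: the carriers Slco1c1 and Slc16a10, the deiodinases Dio1, Dio2 and Dio3, the receptors Thra and Thrb, the cytosolic binding protein gene Crym and the target gene Klf9. All 9 were found. The samples are 3 libraries of polyadenylated RNA, replicates 1 to 3, from brains of adult wild-type C57BL/6J mice for which the labels name no transgene and no treatment. They form 1 group, so no condition was compared with another, and every comparison is between genes within a library or between the libraries. The labels do not state sex or exact age, and the study's design text speaks of 3 mice, so the libraries were taken as 1 mouse each.

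Thyroid hormone circulates mainly as thyroxine (T4), which has to cross the endothelium of the brain before it acts there. Carriers of the organic anion and monocarboxylate families move it across cell membranes, and deiodinases then turn T4 into the active triiodothyronine (T3) or inactivate both. T3 binds nuclear receptors that sit on DNA with retinoid X receptors and exchange corepressors for coactivators. In rodents, Slco1c1 is thought to be a main route of T4 through the vessel wall, while the enzyme that makes T3 in the brain is best known from astrocytes and tanycytes.

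Depth was 128428355, 136672205 and 150449539 counts in replicates 1, 2 and 3. All 6 endothelial markers looked at (Cldn5, Pecam1, Cdh5, Flt1, Ly6c1 and Kdr) were detected, with summed levels of 11324 to 14782 CPM (counts put on one depth with TMM factors). Other cells came along: 6 astrocyte markers summed to 920 to 1708 CPM, 6 choroid plexus markers to 5030.2 to 8145 CPM and 6 neuronal markers to 92.0 to 113 CPM. Most of the choroid plexus sum was Ttr, at 4759 to 7759 CPM. In addition, 5 pericyte markers summed to 3409 to 3630 CPM and 4 microglia markers to 3243 to 4358 CPM. Of 5 tanycyte markers, 1 was detected, and Rax, a defining one, had 0.0276 to 0.172 CPM. Replicate 2 stands apart by its anterior pituitary transcripts, whose 6 markers summed to 1435 CPM there against 20.7 and 18.2 CPM in replicates 1 and 3, and replicate 1 by its erythroid transcripts (986 CPM against 121 and 56.3 CPM). Gh gave 1233 CPM of the pituitary sum in replicate 2, and Lhb was the only pituitary marker not highest there.

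Of the 9 genes, 7 reached the detection limit, which was a level of 1 CPM in each library; 23.2% of all genes in the table did. Dio1 and Dio3 were not. Levels of different genes were compared as TPM, which divides the counts by the exonic length of each gene and scales each library to a common total. In replicate 2 the 9 genes ran from Slco1c1 at 1287 TPM to Dio3 at 0.0371 TPM. By mean TPM the order was Slco1c1, Klf9, Thra, Dio2, Thrb, Crym, Slc16a10, Dio3 and Dio1. The library values of 4 neighbouring pairs in this order overlapped, namely Klf9 with Thra, Thrb with Crym, Crym with Slc16a10 and Dio3 with Dio1. The order within those pairs did not hold in every library, and no test was made between genes. In bulk RNA, fewer cells of a type and less RNA per cell cannot be told apart.

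**Figure D1:**
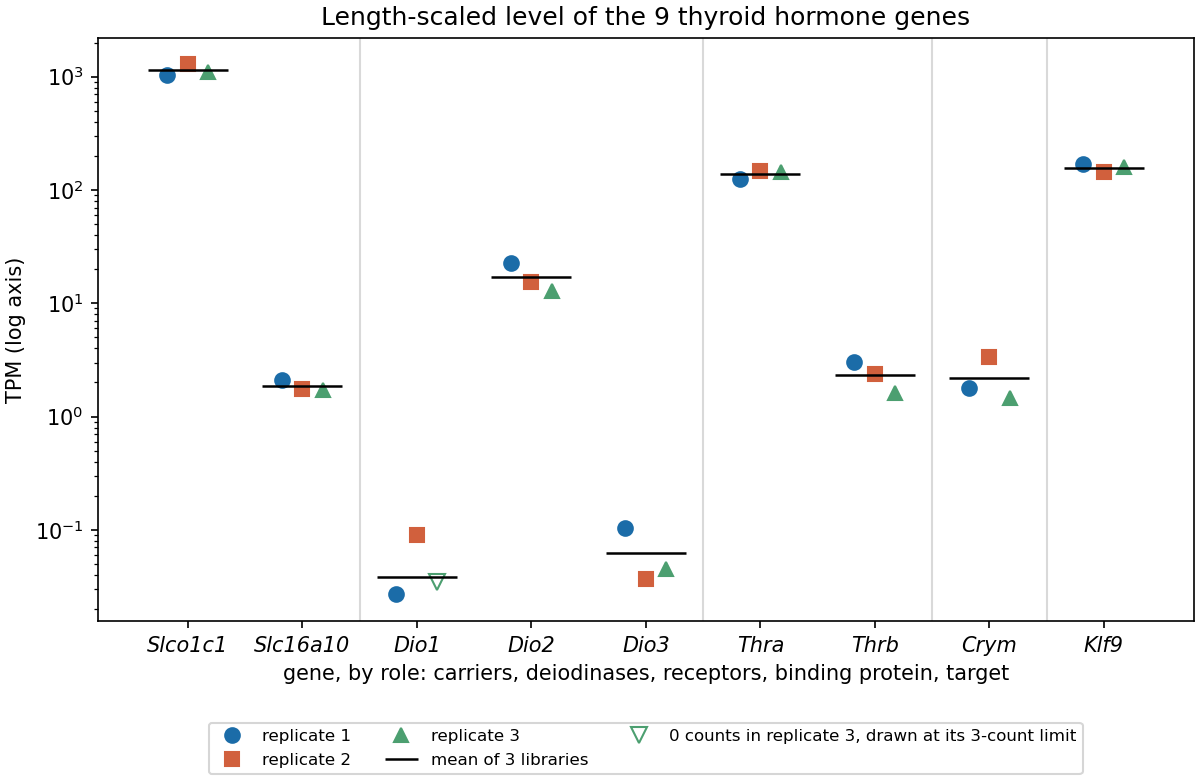
TPM of the 9 genes (log axis) in the 3 libraries, grouped by role; points are libraries, bars are means over the 3 libraries, and the open triangle stands for the 0 counts of Dio1 in replicate 3, drawn at the limit of 3 counts. Slco1c1 lies near 1136 TPM, Klf9 and Thra at 157 and 139 TPM, Dio2 at 17.0 TPM, while Dio1 and Dio3 stay under 0.11 TPM.

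Slco1c1, which encodes the T4 carrier OATP1C1, was the most abundant of the 9 genes. It had 201631, 265507 and 246782 counts, or 1549, 1899 and 1700.1 CPM, in replicates 1, 2 and 3. Its TPM level was 1136 ± 134 (SD, n = 3), which ranks 96 among the 12813 detected genes that have an annotated length. The 6 endothelial markers ran from Kdr at 341 ± 48.2 TPM to Cldn5 at 8376 ± 1357 TPM. The highest Slco1c1 level, in replicate 2, was 1.23 times the lowest, in replicate 1. Replicate 2 was also highest for Ttr, the summed astrocyte markers and Cldn5, while the summed endothelial markers were highest in replicate 3. The part of each cell type in the Slco1c1 level was not tested.

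Slc16a10, the gene of the aromatic amino acid carrier MCT10 that also moves thyroid hormone, had 582, 514 and 553 counts. That is 4.47, 3.68 and 3.81 CPM, or 1.86 ± 0.208 TPM (SD, n = 3). Per length, Slco1c1 exceeded it 491- to 733-fold within the single libraries, a difference of 9.18 ± 0.28 on the log2(TPM + 0.1) scale, in 3 of 3 libraries. An exact sign-flip test over 3 libraries cannot go below p = 0.25, so no difference between genes was given a p. The coefficient of variation on the CPM scale was 10.2% for Slco1c1 and 10.7% for Slc16a10. The median over all detected genes was 9.59%.

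Among the 11 other carriers of the list, 8 were detected. Most of them belong to families that take hormone among other substrates. Slco1a4, an organic anion carrier next of kin to Slco1c1, had 1072 ± 153 TPM, and its library values of 940 to 1239 TPM overlapped those of Slco1c1 (1031 to 1287 TPM). The amino acid carrier Slc7a5 had 1906 ± 436 TPM and its partner chain Slc3a2 875 ± 156 TPM. Slco2b1 stood at 373 ± 26.0 TPM and Slc7a8 at 73.1 ± 8.38 TPM. Slco3a1, Slco4a1 and Slco1a5 were lower, at 13.5 ± 0.348, 4.35 ± 0.868 and 2.43 ± 0.880 TPM. Slco1a6 had 7, 10 and 3 counts, the liver carrier Slc10a1 had 2, 5 and 2 counts, and Slc17a4 had none, which allows up to 0.0231, 0.0215 and 0.0207 CPM (3 counts) in replicates 1, 2 and 3.

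Of the deiodinases, Dio2 was detected and the other two were near the counting limit. Dio2, the enzyme that turns T4 into T3, had 4952, 3601 and 3280 counts, or 38.1, 25.8 and 22.6 CPM. Dio3, which inactivates both hormones, had 8, 3 and 4 counts. Dio1, the enzyme of liver, kidney and pituitary that can do both, had 2, 7 and 0 counts. All 3 are selenoproteins whose active site is encoded by an in-frame TGA codon, normally a stop, and the codon with 21 coding bases on either side is shown from GENCODE M21 because it is what the enzymes share. Capitals mark the TGA, and positions count codons from the start codon.

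Dio1, codon 126 of 257, chromosome 4, minus strand: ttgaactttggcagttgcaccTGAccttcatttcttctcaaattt
Dio2, codon 130 of 266, chromosome 12, minus strand: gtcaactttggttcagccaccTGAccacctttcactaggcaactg
Dio3, codon 170 of 304, chromosome 12, plus strand: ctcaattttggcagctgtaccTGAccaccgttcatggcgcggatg

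Over these 45 bases Dio2 and Dio3 share 28, Dio1 and Dio3 share 26, and Dio1 and Dio2 share 25. Dio2 has 2 annotated codons of this kind, the other being codon 263. Of the Dio2 exons, 1.72% lie under Gm26512 on the other strand.

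Per length, Dio2 was far above both other deiodinases. Its level was 22.6, 15.6 and 12.9 TPM. Counts pooled over the 3 libraries put it 275-fold above Dio3 (15 counts, exact 95% Poisson interval 167 to 492) and 445-fold above Dio1 (9 counts, 235 to 974), where the intervals cover counting error only. Of the 9 Dio1 counts 7 came from replicate 2, and without that library the ratio to Dio1 was 1394 (2 counts, 386 to 11514), a value added after the data were seen. The difference of Dio2 from Dio3 was 6.71 ± 0.19 and that from Dio1 6.96 ± 0.56 on the log2(TPM + 0.1) scale, each in 3 of 3 libraries. The antisense gene Dio3os had 4, 5 and 0 counts.

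Counting error was wide for Dio1 and Dio3. The exact 95% Poisson interval for Dio3 was 0.0265 to 0.121 CPM in replicate 1, the highest library, and 0.00443 to 0.0627 CPM in replicate 2, the lowest. For Dio1 it was 0.0201 to 0.103 CPM in replicate 2 and 0 to 0.0254 CPM in replicate 3, which had 0 counts. The limit of 3 counts, given for Slc17a4 above, is 0.0207 CPM in replicate 3. The 7 counts of Dio1 fell in the library with the pituitary transcripts, whose part in that value was not tested.

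The spread of Dio2 was wider than that of Slco1c1 and Slc16a10. Replicate 1 was 1.68 times replicate 3, and the coefficient of variation was 28.3% on the CPM scale. In edgeR's quasi-likelihood dispersion test, which asks whether a gene varies between the libraries more than genes of its abundance do, Dio2 had the lowest p of the set (unadjusted p = 0.0206) and did not pass after Benjamini-Hochberg adjustment over 18087 genes (adjusted p = 0.900). Astrocyte markers summed to 1570.0, 1708 and 920 CPM in replicates 1, 2 and 3, and choroid plexus markers to 6839, 8145 and 5030.2 CPM. Both sums shared their lowest library with Dio2 but not their highest. Aqp4 alone of the astrocyte markers had the order of Dio2, highest in replicate 1 and lowest in replicate 3. It had 29.8, 26.7 and 15.5 CPM, and the others were highest in replicate 2. Every choroid plexus marker but Ttr had the order of Dio2, among them Kl (260.3, 196 and 127 CPM) and Otx2 (21.3, 14.4 and 11.8 CPM). Ttr, which made up most of the choroid plexus sum, had 6329, 7759 and 4759 CPM. The erythroid markers, Thrb and Snap25 had the order of Dio2 too, whereas the tanycyte markers were highest in replicate 2. How many of all detected genes have this order was not counted. The part of astrocytes, choroid plexus or tanycytes in the Dio2 level was not tested.

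All 4 genes listed as support for deiodinases were detected as RNA, and protein was not measured. Secisbp2 and Eefsec, which insert selenocysteine at the TGA codon, had 12.1 ± 1.75 and 21.5 ± 1.15 TPM. Usp33, a deubiquitinase known to stabilise the Dio2 protein, had 9.70 ± 0.198 TPM, and Vhl had 56.4 ± 3.31 TPM (SD, n = 3). Genes on the opposite strand cover 24.4% of the Usp33 exons and 11% of the Eefsec exons.

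Of the nuclear receptors, Thra was much the higher. It had 168, 194 and 199 CPM in replicates 1, 2 and 3 and a TPM level of 139 ± 11.5 (SD, n = 3), rank 1191 of 12813. Thrb, the receptor best known from liver, pituitary and the sensory systems, had 844, 702 and 525 counts, or 6.49, 5.02 and 3.62 CPM and 2.34 ± 0.701 TPM. Thra exceeded Thrb 41.6- to 88.3-fold in TPM within the single libraries, a difference of 5.87 ± 0.52 on the log2(TPM + 0.1) scale, in 3 of 3 libraries.

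The Thra count pools all products of the gene, which in mammals include a variant that does not bind T3. In addition, 5.70% of the Thra exons lie under the clock gene Nr1d1 on the opposite strand, and 8.55% of the Nr1d1 exons under Thra. Nr1d1 had 181, 225 and 171 CPM. The strand setting of the counting is not given in the sources used here, so the share of reads that moved between this pair is unknown. It bears on Thra alone among the 9 genes to this extent.

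The receptors differed in how evenly the libraries held them. Thra had the smallest coefficient of variation of the set, 8.80% on the CPM scale, and its lowest library, replicate 1, was the one in which Thrb was highest. Thrb had a coefficient of 28.5%, with replicate 1 at 1.79 times replicate 3. Neither passed the edgeR dispersion test (adjusted p = 0.993 for both). Every neuronal marker but Stmn2 was also highest in replicate 1. Snap25 (15.3, 6.57 and 4.08 CPM), Rbfox3 (1.86, 1.74 and 1.45 CPM) and Tubb3 (1.97, 1.78 and 1.56 CPM) had the full order of Thrb. Syt1 and Slc17a7 were lowest in replicate 2. Stmn2 had 80.53, 69.97 and 87.63 CPM and made up most of the summed neuronal markers. That sum was highest in replicate 1 but lowest in replicate 2 (113, 92.0 and 108 CPM). The full order of Thrb was not particular to neuronal markers. Every choroid plexus marker but Ttr had it, among them Otx2 (21.3, 14.4 and 11.8 CPM), as did Aqp4 and all the erythroid markers. The part of residual neurons or of these other cells in the Thrb level was not tested.

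Partners of the receptors were detected with 1 exception. Rxra and Rxrb, retinoid X receptors that pair with thyroid receptors, had 66.2 ± 2.93 and 68.9 ± 7.69 TPM, while Rxrg had 0.553, 0.937 and 0.579 CPM and missed the limit. All 9 coregulators were detected, at 13.9 to 78.8 TPM. The corepressor gene Ncor1 had 41.2 ± 1.84 TPM and its deacetylase partner Hdac3 39.4 ± 4.29 TPM, next to the coactivators Ncoa3 at 54.9 ± 4.33, Ncoa1 at 26.7 ± 3.28 and Ncoa2 at 13.9 ± 1.05 TPM (SD, n = 3). Gps2 had 78.8 ± 3.50, Tbl1x 54.3 ± 3.46, Tbl1xr1 17.2 ± 4.23 and the mediator subunit gene Med1 16.7 ± 2.17 TPM. In the edgeR dispersion test Tbl1xr1 had an unadjusted p of 0.0353 (adjusted p = 0.930).

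Crym was low and the least even of the 7 detected genes of the set. It encodes mu-crystallin, a cytosolic protein that binds T3. It had 229, 455 and 214 counts, or 1.76, 3.25 and 1.47 CPM, and a TPM level of 2.20 ± 1.03 (SD, n = 3). Replicate 2 was 2.21 times replicate 3, and the coefficient of variation on the CPM scale was 44.2%. The edgeR dispersion test gave an unadjusted p of 0.0534 (adjusted p = 0.967). Replicate 2 is the library with pituitary transcripts, and Pomc had 17.7, 105 and 15.0 CPM in the 3 libraries. Lhb alone of the pituitary markers was highest in replicate 1 (1.42, 1.22 and 0.964 CPM). All the tanycyte markers were also highest in replicate 2, Col23a1 only slightly (3.63, 3.64 and 3.09 CPM). Fndc3c1 and Gpr50 had 1.18 and 0.408 CPM there, 0.184 and 0.138 CPM in replicate 1, and 0.0344 and 0.248 CPM in replicate 3. The order of Crym, highest in replicate 2 and lowest in replicate 3, was also that of Ttr and of the summed astrocyte markers (1570.0, 1708 and 920 CPM). Aqp4, Gja1 and the choroid plexus markers other than Ttr did not have it. The part of pituitary or hypothalamic tissue, astrocytes or choroid plexus in the Crym level was not tested.

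**Figure D2:**
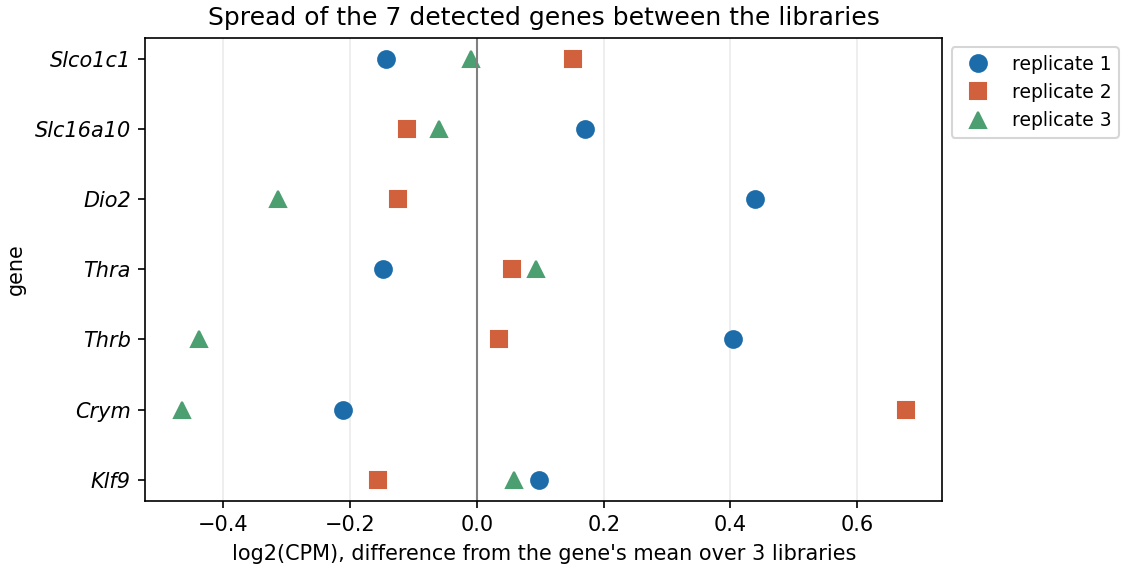
Difference of log2(CPM) in each library from the gene's own mean over the 3 libraries, for the 7 detected genes. Slco1c1, Slc16a10, Thra and Klf9 stay within 0.18 of their means, whereas Crym reaches 0.68 in replicate 2 and Dio2 0.44 in replicate 1, and Thrb lies at 0.40 in replicate 1 and -0.44 in replicate 3.

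None of the 9 genes was among those that varied more than the trend. The edgeR dispersion test called 15 of 18087 genes at an adjusted p under 0.05 (0.0829% of those tested) and 937 at an unadjusted p under 0.05. Of the 9 genes, 7 had enough counts to be tested, 0 were called, and 1 had an unadjusted p under 0.05. DESeq2 marked 112 dispersion outliers and none of the 7 among them. With 3 libraries a gene that is not called may still differ between the mice.

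Klf9, a Krüppel-like transcription factor gene and an early target of T3 in brain cells, was abundant. It had 30630, 27588 and 33227 counts, or 235, 197 and 229 CPM, and a TPM level of 157 ± 12.4 (SD, n = 3), rank 1051 of 12813. Its level was above that of Thra in 2 of 3 libraries. The coefficient of variation was 9.22% on the CPM scale and the edgeR adjusted p 0.993.

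Klf9 also answers to glucocorticoids, so genes known for that response were set beside it. Replicate 2 was the lowest library for Klf9, and likewise for Fkbp5 (55.9, 19.9 and 69.7 CPM in replicates 1, 2 and 3) and Zbtb16 (48.1, 8.56 and 41.0 CPM). The other genes of the group did not have that order. Tsc22d3 had 440.4, 446 and 541 CPM, Per1 78.1, 122 and 97.1 CPM, Sgk1 183, 266 and 242 CPM and Ddit4 267, 426 and 444 CPM, with the receptor gene Nr3c1 at 298, 253 and 246 CPM. Of the 7, none passed the edgeR dispersion test, the lowest adjusted p being 0.0751 for Zbtb16. Early response genes were highest in replicate 2, with Fos at 13.7, 86.6 and 32.6 CPM (edgeR adjusted p = 0.0529). The part of either response in the Klf9 level was not tested.

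**Figure D3:**
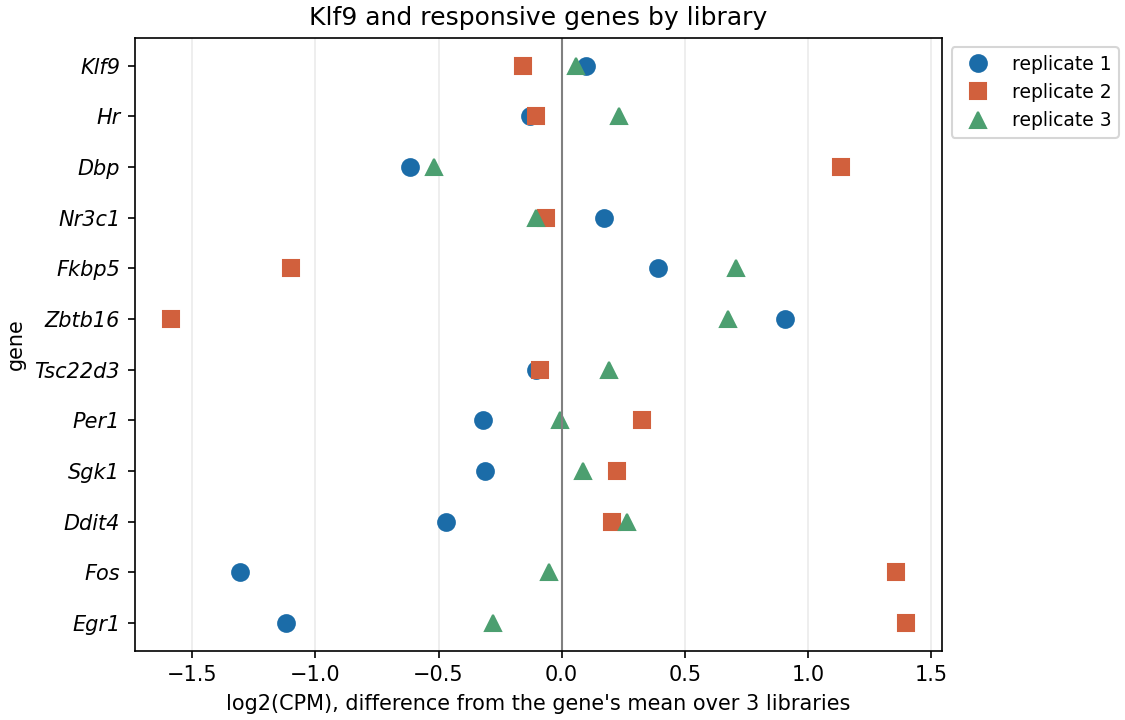
Difference of log2(CPM) in each library from the gene's mean for Klf9, other responsive genes and the early response genes Fos and Egr1. Klf9 lies within 0.16 of its mean, while Zbtb16 and Fkbp5 lie at -1.58 and -1.10 in replicate 2 and Dbp at 1.13 there.

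Of the 9 further genes known to respond to thyroid hormone in some tissue, 6 were detected. Hr, a corepressor gene that T3 induces in rodent brain, had 13.2, 13.5 and 17.0 CPM and 7.21 ± 0.851 TPM. Nrgn and Mbp, responsive in neurons and oligodendrocytes, had 27.3, 26.1 and 25.0 CPM and 63.3, 71.7 and 66.4 CPM. Thrsp, a gene of lipid synthesis, had 24.5 ± 1.45 TPM, and Aldh1a1 29.3 ± 5.72 TPM. Dbp, which the circadian clock also drives, had 23.5, 79.0 and 25.1 CPM and an adjusted p of 0.147 in the edgeR dispersion test. Flywch2 missed the limit in replicate 3 (1.04, 1.33 and 0.827 CPM), while Shh had 5, 1 and 1 counts and the Purkinje cell gene Pcp2 0, 0 and 1 count.

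The hormone carriers of blood and the genes of the thyroid axis were mostly near 0. Ttr, which encodes transthyretin, the T4-binding protein that choroid plexus makes, was the exception at 6329, 7759 and 4759 CPM. Its choroid plexus companions Kl and Otx2 were lowest in replicate 3 as well. Alb had 0.146, 0.229 and 0.110 CPM, and Serpina7, the gene of thyroxine-binding globulin, had no count in any library. Of the 6 axis genes only Tg passed the limit, at 1.81, 1.44 and 1.25 CPM. Tshb, the specific subunit of thyrotropin, had 0.284, 2.55 and 0.372 CPM (edgeR adjusted p = 0.323). Cga, the shared subunit, had 0.922, 45.0 and 1.14 CPM (edgeR adjusted p = 0.00975). Both were highest in replicate 2, as were Gh, Prl and Pomc, whereas Lhb had 1.42, 1.22 and 0.964 CPM. The Cga call was lost with a robust prior (edgeR adjusted p = 0.994) and without replicate 2 (adjusted p = 0.997), and the adjusted p was at most 0.0226 under the other edgeR settings. Trh, Trhr and Tshr were each under 0.46 CPM in every library.

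In all, 31 of the 45 other genes of the list were detected (68.9%), beside 23.2% of all genes in the table. Of the 37 with enough counts to be tested, 1 varied more than the trend, beside 0.0829% of all genes tested. That was Cga, whose call was lost without replicate 2. The median of the mean levels of the 45 genes was 27.4 CPM, beside 5.04 CPM over the 9 genes of the set, with no scaling for length. Over all genes of the table, 26428 of which had no count, it was 0.00459 CPM. Over the 13211 detected genes it was 26.7 CPM.

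**Figure D4:**
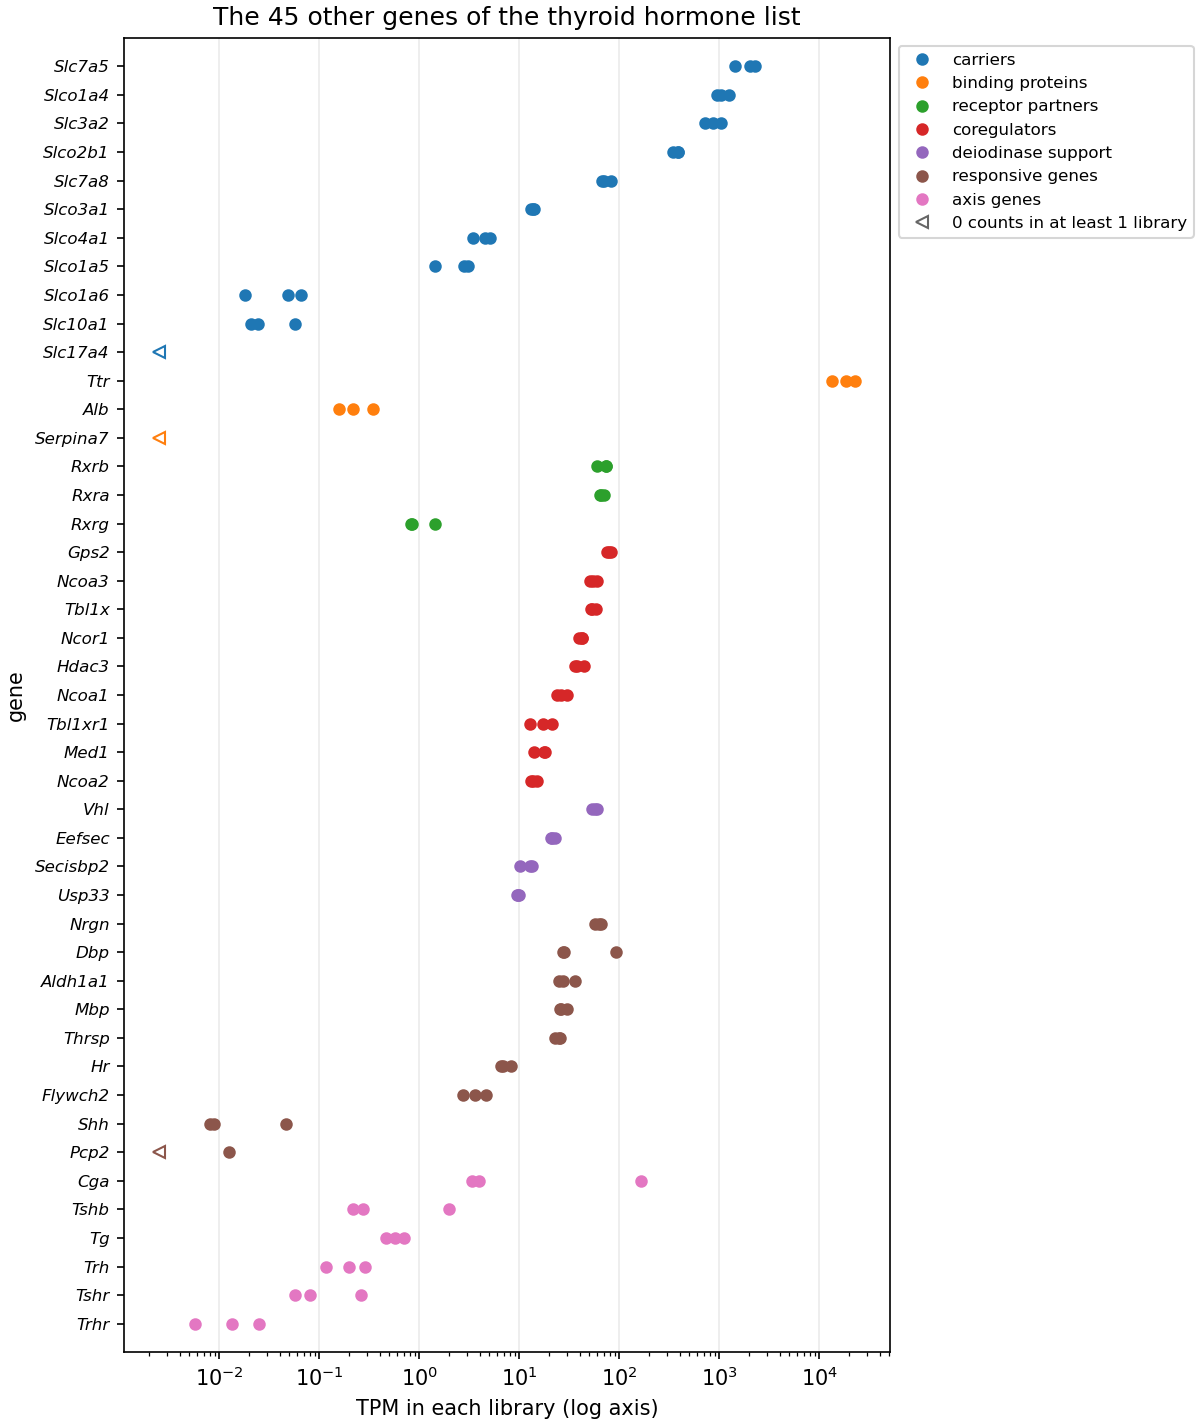
TPM in each of the 3 libraries (log axis) for the 45 other genes of the thyroid hormone list, by group; open triangles mark genes with 0 counts in at least 1 library. Carriers span from Slc7a5 at 1906 TPM to Slc17a4 at 0, coregulators lie between 13.9 and 78.8 TPM, and in the axis group Cga and Tshb have 1 library, replicate 2, above the others.

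Promoter sequences from RefSeq (build GRCm38.p6) were found for 7 of the 9 genes, and Thra and Crym had none. Each spans 250 bases before and 50 after the start of the gene. These motifs were searched on both strands: AGGTCA, the hexamer bound by thyroid and related receptors, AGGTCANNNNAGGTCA, the direct repeat of it, AGAACA, a hexamer bound by the glucocorticoid receptor, the GC box GGGCGG, the E-box CACGTG and TATAAA. Of 32851 promoters of this length, 16.3% hold AGGTCA, 0.0152% the direct repeat, 19.0% AGAACA, 35.7% GGGCGG, 7.15% CACGTG and 13.6% TATAAA. Windows of 120 bases before and 30 after the start are shown for the most abundant gene, the target gene, Dio2 and Dio3, with matches in capitals.

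Slco1c1, chr6:141524234-141524383, plus strand: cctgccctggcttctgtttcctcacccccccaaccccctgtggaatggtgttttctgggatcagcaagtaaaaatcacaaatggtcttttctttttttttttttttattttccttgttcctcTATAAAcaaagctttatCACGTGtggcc
Klf9, chr19:23141106-23141255, plus strand: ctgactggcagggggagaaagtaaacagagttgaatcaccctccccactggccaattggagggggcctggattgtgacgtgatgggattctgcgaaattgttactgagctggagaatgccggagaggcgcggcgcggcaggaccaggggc
Dio2, chr12:90739009-90739158, minus strand: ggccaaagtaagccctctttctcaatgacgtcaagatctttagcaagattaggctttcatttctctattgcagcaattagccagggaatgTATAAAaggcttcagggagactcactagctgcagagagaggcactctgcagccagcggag
Dio3, chr12:110279110-110279259, plus strand: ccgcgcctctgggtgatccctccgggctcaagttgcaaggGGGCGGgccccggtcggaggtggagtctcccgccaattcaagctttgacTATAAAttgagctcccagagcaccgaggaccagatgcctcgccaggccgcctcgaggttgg

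Abundant and scarce genes were found among both CpG-poor and CpG-rich promoters. Over the 300 bases, Slco1c1 held 1 CpG dinucleotide, Dio2 and Dio1 3 each, Dio3 25, Slc16a10 26, Klf9 28 and the 2 starts of Thrb 37 and 4, where the median over all promoters was 7. Dio2 and Dio3 both hold TATAAA, beginning at -30 and -31 from the start, and Dio3 holds GGGCGG at 4 places. Slco1c1 has TATAAA and CACGTG just past its annotated start, at 3 and 20. AGGTCA was found in 1 of the promoters, that of the upstream start of Thrb, at -184, and the direct repeat in none. Klf9 holds none of the motifs in this window. A match of letters is a description and not a binding site.

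The genes whose pattern over the 3 libraries lay nearest to that of Slco1c1 were Psmb9, Rabggta and Amdhd2, with distances of 0.0015, 0.00182 and 0.00388 between mean-centred log2(CPM + 1) values. For Klf9 they were Tbccd1, Pitpnb and Taf15, at 0.00202, 0.00628 and 0.00789. With 3 libraries such nearness is common, since 708 of 9503 genes lay within 0.1 of Slco1c1 and 632 within 0.1 of Klf9.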

How the data were processed

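The authors deposited 1 table of raw counts, whole numbers with 1 column for each library. Per the submitters' processing notes they used featureCounts, Subread 1.4.6-p5 and build GRCm39; the aligner, annotation release, strand setting and treatment of multiply mapped reads are not stated there. CPM used TMM effective library sizes (edgeR 4.0.16, R 4.3.3). TPM divided counts by union exon lengths from GENCODE M21 (GRCm38, matched by symbol, 48985 genes with 98.2% of counts), so the only coordinates given are those of the RefSeq promoter windows (GRCm38.p6), with chromosome and strand from M21 for the deiodinases. The detection limit was 1 CPM in each library. Variability used an intercept-only edgeR quasi-likelihood fit over genes kept by filterByExpr, comparing the quasi-dispersion of a gene with its trended prior value (F test, upper tail; Benjamini-Hochberg over all genes); the procedure was tested on simulated data. DESeq2 1.42.0, Python 3.11.15, numpy 2.4.6 and pandas 2.3.3 were also used. Differences between genes used log2(TPM + 0.1). The genes named were the 9, the wider list except for a few genes that are not reported here, markers of cell types, glucocorticoid-responsive and early response genes, overlapping or antisense neighbours, and the 3 nearest in pattern among detected genes of at least 10 CPM. The 9 genes and the lists were chosen with earlier results of these data known. Replicates were numbered by title; p-values measure only the spread between these samples.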

Additional observations from a re-analysis of the deposited data

How the results depend on the processing

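The count of the 9 genes detected (7) and the count of the 45 others (31) stayed within 1.5 times under every alternative tried. In the test of variability, 0 of the 9 genes were called under any alternative, but Dio1 and Dio3 were tested only with no filter on low counts. Over all genes that test called 15; it called 173 with no filter on low counts, 0 with a robust prior (785 at an unadjusted p under 0.05) and 112 as DESeq2 dispersion outliers, and 7 (without replicate 1) to 80 (without replicate 2) with a library left out. Differences between genes kept their sign under each alternative. With log2(TPM + 1) they were 8.63 (Slco1c1 minus Slc16a10), 4.05 (Dio2 minus Dio3) and 4.08 (Dio2 minus Dio1), where the larger pseudocount shrinks values near 0. With the longest transcript as length they were 6.47 (Dio2 minus Dio3) and 6.52 (Thra minus Thrb). With no length scaling, log2(CPM + 0.1) gave 8.71, 7.70, 7.87 and 5.22 for Slco1c1 minus Slc16a10, Dio2 minus Dio3, Dio2 minus Dio1 and Thra minus Thrb. The mean level of Dio1, 0.0218 CPM over the 3 libraries, was 0.00768 CPM without replicate 2. No paired analysis was possible because there is only 1 group. Depth limits Dio1 and Dio3, whose counts lie near the limit that 0 allows.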
